A study of Mus musculus with 2 samples.

Results

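Smooth muscle and other mural cells of the vomeronasal organ were taken from 2 droplet libraries of the whole organ of male C57BL/6J wild-type mice at postnatal day 60. The groups share this genotype, strain, sex and age, and no treatment was given. Organs of 5 mice were dissociated with papain and collagenase, and the cells were frozen and thawed before capture; how the 5 mice were divided between the 2 libraries is not stated, so every p below measures the spread between these 2 libraries only. Cells were kept with 200 to 9000 detected genes and at most 10% of their UMIs (molecules counted once by their molecular identifiers) from the mitochondrial genome. Among these, a cell was gated with at least 3 UMIs of Acta2, at least 3 of Tagln, at least 1 of Myh11 and none of Pecam1. The gate held 376 of 18704 kept cells (2.01%; 95% exact binomial interval 1.81 to 2.22), of 24084 barcodes in all. Library 1 gave 229 of them (2.29% of its kept cells) and library 2 gave 147 (1.69%). The members were thus chosen by their measured UMIs of Acta2, Tagln, Myh11 and Pecam1, so the levels of these genes are a description and carry no test.

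Smooth muscle cells and pericytes, together called mural cells, wrap blood vessels. Contraction of smooth muscle follows a rise of cytosolic calcium, which activates myosin light chain kinase (Mylk), and nitric oxide reverses it through soluble guanylate cyclase and cyclic GMP. In the vomeronasal organ, constriction of the large vessel beside the lumen draws fluid and stimuli into the organ, which makes the smooth muscle of that vessel a part of its pump. The whole organ was dissociated, so which vessel a gated cell came from is not known. Rgs5, a regulator of G-protein signalling, is a known marker of pericytes and of some arterial smooth muscle, and Kcnj8 and Abcc9, the subunits of a potassium channel gated by ATP, are known markers of brain pericytes.

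The 376 cells were not uniform. Besides Acta2 (smooth muscle actin), Tagln (transgelin) and Myh11 (smooth muscle myosin), Cnn1 (calponin), a marker that the gate did not use, had a UMI in 78.2% of them, against 21.7% of fibroblasts, 1.83% of endothelial cells and 1.98% of macrophages. Acta2 ranged from 3 to 396 UMIs per cell with a median of 78.5, Tagln from 3 to 292 with a median of 31, and Myh11 from 1 to 99 with a median of 14. At the edge of the gate, 72 members had a single Myh11 UMI, and 411 cells met the other conditions with none. Likewise 5 members had just 3 Acta2 UMIs where 7 cells were left out at 2, 20 members had 3 Tagln UMIs where 25 were left out at 2, and 10 cells were left out for 1 Pecam1 UMI.

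Markers of other classes were present in part of the gated cells. Of the 376, 101 also met a fibroblast gate (at least 3 UMIs each of Dcn, decorin, and Col1a2, a chain of collagen I). These 101 cells, 56 in library 1 and 45 in library 2, had a median of 2 Myh11 UMIs and a highest value of 46, with a median of 19 Dcn UMIs. A further 115 cells, 81 and 34 by library, had at least 2 UMIs of 2 or more genes of an epithelial, immune, neuronal, glial, endothelial, cartilage or skeletal muscle list. The remaining 160 cells, 92 and 68 by library, are called core cells here. Of these, 53 had a Rgs5 UMI (27 and 26) and 107 had none (65 and 42). This sorting into core and other cells was made after the values were seen, so it is used to describe. Fits on core cells, where given below, show only how a call depends on the cells taken and are no test of their own. The plot of the makeup of the gated cells shows both libraries.

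**Figure D1:**
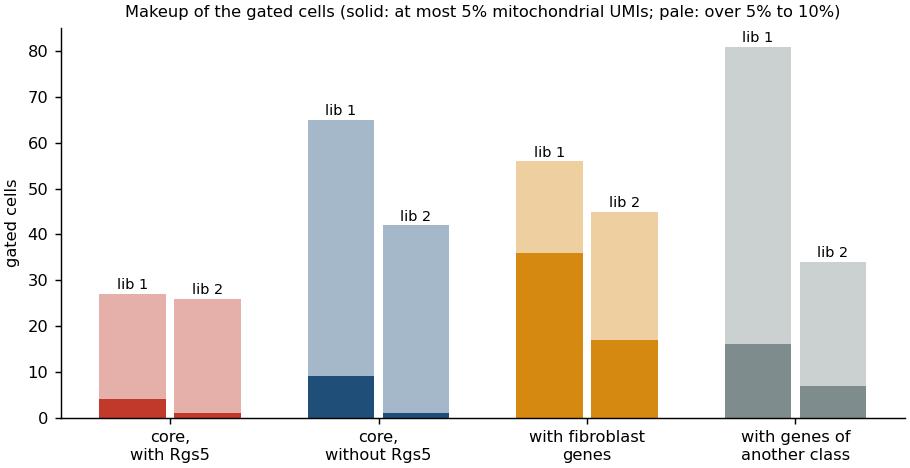
Number of gated cells in each of 4 sets (x axis), with a bar for each library; the solid part of a bar counts cells with at most 5% mitochondrial UMIs and the pale part those over 5% to 10%. Cells with genes of another class were more numerous in library 1 (81) than in library 2 (34), and few core cells lay at or under 5%.

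The core cells lack the other lists by the way they were picked, apart from the fibroblast list, of which 57 of 160 still had at least 2 UMIs of 2 or more genes (2002 and 1150 CPM in sum), and from Gnai2 and Meis2. They had a median of 22 Myh11 UMIs where Rgs5 was present and 23 where it was not. The epithelial list (basal and myoepithelial genes) marked 92 gated cells, 72 in library 1 and 20 in library 2. Those of library 1 had low smooth muscle genes, with medians of 19.5 Acta2, 6 Tagln and 4 Myh11 UMIs beside 22.5 of the keratin Krt18 and 10 of the adhesion molecule Epcam. Those of library 2 had 79, 26.5, 25, 13.5 and 9 in the same order. Of the 92, 50 had a UMI of Krt5, Krt14 or Trp63, genes of basal and myoepithelial cells, the latter being contractile cells around glands that are known to share Acta2 and Myh11 with smooth muscle. Oxtr, another gene of such cells, was at 0. The immune list marked 53 cells (44 and 9), the neuron list without Gnai2 and Meis2 marked 44, the endothelial list 24, cartilage and bone 4, glia 2, skeletal muscle 2 and erythrocytes 0. A UMI of Krt5, Krt14 or Trp63 was also found in 27 of these 53, in 21 of these 44 and in 10 of the 101 cells that met the fibroblast gate. These sets can overlap the 92. The endothelial list summed to 166 and 186 counts per 1e6 UMIs (CPM) in the gated cells of libraries 1 and 2, against 8889 and 8754 in endothelial cells, and Tek, like Pecam1, was at 0. The gated cells were not shallow: the median was 8393.5 UMIs and 2798.5 genes per cell, against 6564 UMIs in all kept cells. A doublet caller marked 10 of them (2.66%), 6 also passed a macrophage gate, and 3 carried a barcode sequence that occurs in both libraries, of 33 such sequences in the series. Since fewer cells with RNA of a gene and less RNA per cell give the same sum, levels in CPM are given with shares of cells where a gene matters most.

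Genes of the contractile apparatus were set against fibroblasts (715 cells with at least 3 Dcn and 3 Col1a2 UMIs, no Myh11 and no Pecam1) and endothelial cells (493 cells with a Pecam1 and a Cdh5 UMI, no Myh11 and no Dcn), with UMIs summed per library and cell group. The gate chose cells high in smooth muscle genes, so these 2 comparisons share its contrast: they are given as a description, and nothing is read from their counts. Differences are log2 values with their standard errors from edgeR's quasi-likelihood fit, and a gene is called at a Benjamini-Hochberg adjusted p under 0.05 over all genes tested. Over all genes tested against fibroblasts, 9.4% were called higher and 10.1% lower in the gated cells; of 33 contractile genes, 27 were called higher and 0 lower, with a median of 2.32 against 0.00 for all genes. Against endothelial cells 20.2% of all genes were called higher and 17.5% lower, and of the same 33 genes 29 were higher and 1, Actn4, lower.

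Cnn1 stood at 517 and 528 CPM in the gated cells of libraries 1 and 2, at 69.4 and 59.5 in fibroblasts and at 2.81 and 2.28 in endothelial cells, a log2 difference from fibroblasts of 2.97 ± 0.14. Mylk, the kinase that starts contraction, stood at 1846 and 2031 CPM against 128 and 146 in fibroblasts (3.78 ± 0.13). Myl9, the myosin regulatory light chain that this kinase phosphorylates, stood at 6202 and 5216 against 1103 and 925 CPM (2.45 ± 0.15). In each of these the libraries lay close together and the groups far apart. Actg2, the gamma actin best known from visceral smooth muscle, had 1026 and 663 UMIs in the gated cells against 0 and 1 in fibroblasts, a ratio of 2671 in CPM with a counting interval of 479 to 105565. It was found in 46.8% of gated cells, and its level in core cells without Rgs5 was 936 and 826 CPM. Ppp1r14a, the inhibitor of myosin phosphatase, was higher than in fibroblasts by 7.40 on the log2 scale, and the tropomyosin Tpm2 by 1.88. Des (desmin), an intermediate filament common in muscle, had a UMI in only 0.798% of the gated cells, with 18 and 2 UMIs in all.

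The promoters of these genes were searched for the CArG box (CC and GG around 6 bases of A or T), the site of serum response factor (SRF), which together with myocardin drives smooth muscle genes. Of 36 genes asked for (the contractile list with Acta2, Tagln and Myh11), 30 have a promoter in the RefSeq table of build GRCm38.p6. It lacks Tagln and Myh11, so these genes of the gate were not searched. Of the 30 genes, 4 (13.3%) held the box in the 250 bases before the start of any of their promoters. Of all 32851 promoters, counted singly, 1.47% held it. A gene can have several promoters, so these shares are not of like units. The box reads the same on both strands, so 1 search covers both. The 4 boxes are shown in capitals in their flanking sequence, 5′ to 3′ on the strand of the gene, because they are all the matches among the 30 genes.
Myl9, myosin light chain, chr2:156775268-156775347, plus strand: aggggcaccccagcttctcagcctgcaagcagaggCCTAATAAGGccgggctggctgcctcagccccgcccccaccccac
Cnn2, calponin 2, chr10:79988509-79988588, plus strand: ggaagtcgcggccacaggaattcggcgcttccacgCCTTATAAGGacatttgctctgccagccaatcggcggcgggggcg
Ldb3, a protein of the actin anchor, chr14:34588672-34588751, minus strand: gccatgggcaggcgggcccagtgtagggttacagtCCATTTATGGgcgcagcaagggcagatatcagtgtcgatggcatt
Vcl, vinculin, chr14:20929148-20929215, plus strand: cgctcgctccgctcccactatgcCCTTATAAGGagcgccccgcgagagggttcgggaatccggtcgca
A looser form with 1 G or C among the middle bases was chosen after the sequences were seen. Strict boxes included, it occurred in 8.59% of all promoters, counted singly, and in any promoter of 7 of the 30 genes, again in unlike units. Acta2, the gene that leads the gate, has 2 such boxes, 84 and 34 bases before its start.
Acta2, farther box, chr19:34255413-34255492, minus strand: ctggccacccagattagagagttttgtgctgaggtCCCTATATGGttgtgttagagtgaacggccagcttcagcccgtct
Acta2, nearer box, chr19:34255374-34255442, minus strand: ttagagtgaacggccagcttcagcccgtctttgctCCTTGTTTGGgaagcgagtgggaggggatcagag
These matches are a description of letters and say nothing of binding. Levels of the 4 genes with a strict box differed widely: Ldb3 had 167 and 134 UMIs against 5 and 3 in fibroblasts (5.83 ± 0.29), Myl9 is given above, and Cnn2 and Vcl were not called against fibroblasts. The factors themselves were low. Myocd, the myocardin gene, had 48 and 41 UMIs in the gated cells, with a UMI in 19.1% of them, against 4 and 0 in fibroblasts (5.03 ± 0.58), and Srf had 64 and 37.

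**Figure D2:**
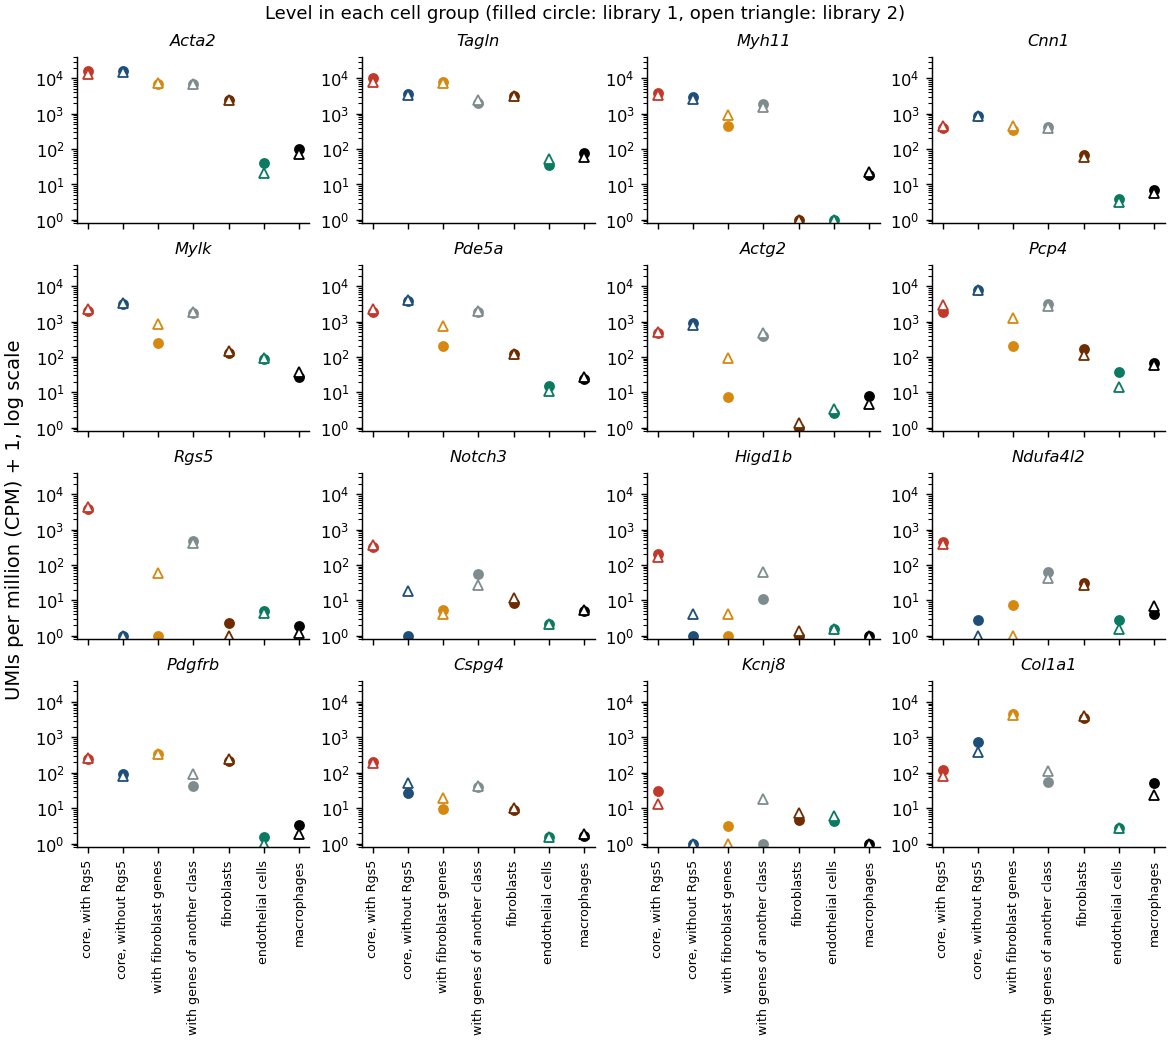
Levels of 16 genes (1 panel each) in 4 sets of gated cells and in fibroblasts, endothelial cells and macrophages, in CPM plus 1 on a log axis; a filled circle is library 1 and an open triangle library 2. Smooth muscle genes were shared by both sets of core cells, Pcp4 and Actg2 were higher without Rgs5, and Notch3, Higd1b, Ndufa4l2 and Cspg4 were higher with it.

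Of 35 genes of ion channels and calcium handling tested, 24 were called higher than in fibroblasts and 4 lower, with a median of 1.51. Pln (phospholamban), which restrains the calcium pump of the sarcoplasmic reticulum, had 1201 and 844 UMIs in the gated cells against 6 and 1 in fibroblasts (8.77 ± 0.29), and Atp2a2, that pump, stood at 826 and 962 CPM against 177 and 226 (2.11 ± 0.14). P2rx1, the ATP-gated channel through which sympathetic nerves contract vessels, had 140 and 117 UMIs against 1 and 0. Kcnmb1, the beta subunit of the large calcium-activated potassium channel, had 80 and 55 against 1 and 1, and Ryr2, a calcium release channel, 39 and 33 against 1 and 0. The 3 genes were thus all but absent from fibroblasts. Kcnk3, a leak potassium channel, was higher by 4.52 ± 0.21, Kcnab1, a potassium channel subunit, by 4.83 ± 0.25 and Ano1, a calcium-activated chloride channel, by 3.76 ± 0.25.

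Receptors for vasoactive signals were mixed. Of 34 tested, 7 were called higher than in fibroblasts and 13 lower (median -0.38). Ramp1, the partner that makes the receptor of the vasodilator CGRP, was the most abundant of those called higher, at 508 and 596 CPM against 33.7 and 39.9 (3.86 ± 0.15). Adra1b, the alpha-1B adrenergic receptor, had 53 and 49 UMIs in the gated cells, 0 and 6 in fibroblasts and 0 and 0 in endothelial cells. P2ry14, a receptor of UDP-sugars, was higher than in fibroblasts by 1.76. Ednra, the endothelin receptor of smooth muscle, stood at 52.8 and 68.1 CPM, close to the 61.4 and 61.3 of fibroblasts (-0.08 ± 0.16, adjusted p = 0.78 by edgeR), while endothelial cells had none, so that it was at least 69.1-fold higher than there. Agtr1a, the angiotensin receptor gene, and Adra2b did not reach the 10 UMIs needed for a test.

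In the pathway of nitric oxide and cyclic nucleotides, 20 of 37 genes were called higher than in fibroblasts and 3 lower (median 0.74). Pde5a, the phosphodiesterase that breaks down cyclic GMP and the target of sildenafil, stood at 2050 and 2277 CPM against 120 and 122 in fibroblasts and 14.6 and 10.3 in endothelial cells, and had a UMI in 85.1% of the gated cells. The guanylate cyclase subunits Gucy1b1 and Gucy1a1 were higher by 5.60 ± 0.21 and 2.79 ± 0.16. These genes too were far above fibroblasts in both libraries.

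Rgs5 divided the gated cells. A UMI was found in 73 of 376 (19.4%; interval 15.5 to 23.8), in 17.0% of library 1 and 23.1% of library 2. Positive cells had a median of 13 UMIs and a highest value of 142, while the 3 fibroblasts, 12 endothelial cells and 5 macrophages with Rgs5 (0.42%, 2.43% and 0.319%) had at most 2 UMIs each. At least 2 UMIs were found in 32 of the 39 positive gated cells of library 1 and in 26 of the 34 of library 2. The other positive gated cells had 1. After every cell was thinned to 4089 UMIs, which left out 38 shallower members, the share was 15.7%. Median depths before thinning were 8393.5 UMIs in gated cells, 6959 in fibroblasts, 5567 in endothelial cells and 5178 in macrophages. Rgs5 lies on chr1:169655501-169695813 of mm10. Of the 73 kept cells with at least 3 Rgs5 UMIs, whatever their other genes, 52 were gated, 20 had no Myh11 UMI and 0 had a Pecam1 UMI.

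Kcnj8 was rare. A UMI was found in 5 of 376 cells (1.33%, interval 0.433 to 3.08). Fibroblasts had 3.78% (2.50 to 5.45) and endothelial cells 2.03% (0.977 to 3.70), so their intervals overlapped that of gated cells. After thinning the shares were 1.48% in gated cells, 2.60% in fibroblasts and 1.41% in endothelial cells. Of 1567 macrophages 0 had a UMI, where a count of 0 allows up to 0.191% of cells with a UMI. The Kcnj8 shares of gated cells by library were 0.873% and 2.04%. Its partner Abcc9 had a UMI in 7 cells and Vtn (vitronectin), another marker of brain pericytes, in 3, with 18 and 21 UMIs in all. Only 3 of the kept cells, gated or not, had Kcnj8, Abcc9 and Rgs5 together. Cells with the brain pericyte markers were too few to be compared as a group.

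Pdgfrb, the receptor through which endothelial PDGF-B recruits mural cells, was widespread. A UMI was found in 206 of 376 gated cells (54.8%; interval 49.6 to 59.9), in 49.3% of library 1 and 63.3% of library 2, and in 37.9% after thinning. It does not mark mural cells alone in this tissue: 75.2% of fibroblasts had it (58.2% after thinning), against 0.203% of endothelial cells and 0.702% of macrophages. Within the gated cells the share was 80.2% where fibroblast genes were present, 66.0% in core cells with Rgs5, 45.8% in core cells without and 35.7% in cells with genes of another class. Its ligand gene Pdgfb had 6 and 2 UMIs in the gated cells and stood at 153 and 165 CPM in endothelial cells.

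Cells with Rgs5 (39 and 34 by library) were then compared with those without (190 and 113) within the gate, on genes other than Rgs5. The split uses neither the gate's genes nor its contrast. Of 12394 genes, 2.53% were called higher with Rgs5 and 2.36% lower, 606 in all, or 920 with the library as a block in the fit. Of 17 pericyte genes tested, 13 were higher and 0 lower (median 3.45, against -0.10 for all genes). The same libraries supply both sides, and the sides differ in makeup: 2 of 73 cells with Rgs5 (2.74%) met the fibroblast gate against 99 of 303 without (32.7%), and the fibroblast list summed to 709 and 1684 CPM against 5044 and 5175. The epithelial list summed to 1133 and 904 against 2675 and 1553, and the immune list to 376 and 1223 against 1708 and 1495. Median depth was 7658 UMIs against 8546, and 8.22% against 28.1% of cells lay at or under 5% mitochondrial UMIs. The part of these in the calls was not tested; levels in core cells, which hold 53 cells with Rgs5 and 107 without, are therefore given beside the main genes.

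Notch3, the Notch receptor of arterial smooth muscle and pericytes, had 107 and 71 UMIs in the cells with Rgs5 against 11 and 12 in the far larger number without, or 346 and 258 CPM against 5.66 and 10.7 (log2 difference 5.27 ± 0.31, adjusted p = 1.66e-05). A UMI was found in 50 of 73 cells with Rgs5 and in 18 of 303 without. In core cells the levels were 310 and 357 CPM against 0 and 17.8. The groups did not overlap in either reading. Cspg4 (NG2), a proteoglycan of mural cells, stood at 185 and 171 CPM against 21.1 and 28.6 (2.85 ± 0.24), Rgs4, a relative of Rgs5, at 210 and 232 against 14.4 and 16.1 (3.84 ± 0.22), and Cox4i2, a cytochrome oxidase subunit of the response to low oxygen, at 534 and 399 against 93.6 and 92.9 (2.31 ± 0.20). All were higher with Rgs5 in both libraries.

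Higd1b, a gene found in mural cells of many vessels, had 50 and 66 UMIs with Rgs5 against 0 and 1 without, a ratio of 608 in CPM with a counting interval of 107 to 24220. These UMIs came from 22 gated cells, 14 of them core cells with Rgs5, and the highest cell alone held 36. Ndufa4l2, a mitochondrial protein induced by low oxygen, had 144 and 89 UMIs against 12 and 1 (6.50 ± 0.41), and in core cells 451 and 386 CPM against 1.71 and 0. Kcnj8 had 6 and 11 UMIs against 1 and 1, a ratio of 44.6 (interval 10.6 to 398), and Abcc9 8 and 8 against 3 and 0, a ratio of 28.0 (8.002 to 149.7); both rest on the few cells named above, and Vtn, at least 68.1-fold higher with Rgs5, rests on 3. Gja4 (connexin 37), a gap junction protein of arteries, had 26 and 13 UMIs against 2 and 2 (5.50 ± 0.55). Pdgfrb was higher by 0.99 ± 0.18, at 223 and 287 CPM against 118 and 135. In core cells it stood at 240 and 257 against 90.7 and 79.9. Gja4 (adjusted p = 0.0996 by edgeR), Pdgfrb (0.117), Heyl (0.308), Kcnk3 (0.411), P2rx1 (0.168) and Itga7 (0.174) did not pass once every cell with a gene of another class was left out. Kcnj8 (adjusted p = 0.278 by edgeR) and Vtn (0.189) did not pass under a stricter gate of 10 UMIs each of Acta2 and Tagln and 3 of Myh11. After thinning, the differences of Pdgfrb (0.72, adjusted p = 0.184 by edgeR) and Kcnj8 (adjusted p = 0.0835) did not pass either, nor did that of Jag1 (1.87, adjusted p = 0.072). At the study's mitochondrial limit of 5%, where 6 cells with Rgs5 are left, Hes1 (0.018), Jag1 (1.43), Mef2c (1.97), Tbx2 (1.39), Pde3a (2.01), Rgs2 (-1.12), Kcnk3 (0.70) and Tes were not called.

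In the Notch list, which also holds Nrip2 and Epas1, genes beyond the receptor were higher with Rgs5: of 20 tested, 8 were called higher and 0 lower (median 0.59). The targets Heyl and Hey2, transcriptional repressors that Notch induces, had 21 and 11 UMIs against 6 and 3 (4.13 ± 0.49) and 5 and 7 against 1 and 0, a ratio of 62.9 (interval 9.31 to 2689). Nrarp, a target that dampens the pathway, stood at 87.4 and 116 CPM against 7.72 and 3.57 (3.99 ± 0.37), and Hes1, another target, at 599 and 588 against 196 and 165 (1.69 ± 0.16). Nrip2, listed with these genes, stood at 201 and 156 CPM against 3.09 and 4.47 (5.56 ± 0.33). Jag1, the ligand that smooth muscle presents to its neighbours, was higher by 2.25 ± 0.36 and Epas1 (HIF-2 alpha), a factor of the response to low oxygen, by 2.36 ± 0.17. Hes1 in core cells was 711 and 637 CPM against 214 and 91.8. Against endothelial cells, in contrast, 11 of 23 genes of this list were lower in the gated cells as a whole and 5 higher. Notch4 was lower by 3.80 and Jag2 by 2.89, while Notch3 was higher by 5.44 and Heyl had no UMI in endothelial cells. Dll4, the ligand of arterial endothelium, had 2 and 0 UMIs in the gated cells against 54 and 69 in endothelial cells. Against fibroblasts Notch3, Nrarp and Nrip2 were higher by 2.57, 3.44 and 5.38.

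With cells of another class left out, 5 of 31 contractile genes were higher with Rgs5 and 4 lower (median 0.09). In core cells 8 of 33 were higher and 4 lower (median 0.07). Over all gated cells, 12 of 33 were higher with Rgs5 and 1 lower (median 0.51). Among the largest were genes that are not known parts of the filaments: Sncg (gamma-synuclein) stood at 800 and 483 CPM against 3.09 and 7.15 (7.06 ± 0.38), Map3k7cl had 40 and 23 UMIs against 2 and 6 (5.24 ± 0.52), Mustn1, a small nuclear protein of muscle and skeleton, stood at 2056 and 2105 CPM against 149 and 201 (3.56 ± 0.17) and Mcam, an adhesion molecule of mural and endothelial cells, at 288 and 272 against 46.3 and 73.3 (2.24 ± 0.23). The 1 lower gene was Tes (testin), at least 7.50-fold lower. The others called higher were Des (in 3 cells, given above), Susd5, Ldb3 (0.93), Sorbs2 (1.20), the myosin phosphatase subunit Ppp1r12b (1.06), Csrp1, a LIM protein of the actin skeleton (1.00, at 1366 and 1168 CPM against 576 and 679), the actin binder Synpo2 (0.95) and filamin, Flna (0.64). For 4 abundant genes of contraction and its control the call differed with the set of cells compared. Over all gated cells Mylk differed by -0.08 ± 0.12 (adjusted p = 0.816) and Cnn1 by -0.53 ± 0.14 (adjusted p = 0.0706, or 0.0285 with the library as a block). Pde5a differed by -0.39 ± 0.18 (adjusted p = 0.307) and Actg2 by -0.46 ± 0.15 (adjusted p = 0.138). Without cells that carried a gene of another class, all 4 were lower with Rgs5 by edgeR: Mylk by 0.67 (adjusted p = 0.0284), Cnn1 by 0.95 (0.0231), Pde5a by 1.25 (7.06e-05) and Actg2 by 2.31 (0.000782). With at least 2 Rgs5 UMIs asked of a cell, Cnn1 (-0.98), Pde5a (-0.91) and Actg2 (-2.17) were called as well. In core cells Cnn1 stood at 405 and 444 CPM with Rgs5 and at 879 and 858 without, Mylk at 2027 and 2286 against 3233 and 3356, and Pde5a at 1892 and 2333 against 3897 and 4144. Acta2 lay close in both, at 16274 and 13418 CPM against 15781 and 15302, whereas Tagln was higher with Rgs5, at 9936 and 7700 against 3673 and 3398.

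Pcp4 (Purkinje cell protein 4), a regulator of calmodulin, was lower with Rgs5 and was picked after its values were seen. In all gated cells it stood at 1237 and 2145 CPM with Rgs5 and at 4088 and 4054 without (-1.30 ± 0.20, adjusted p = 0.00586). In core cells it stood at 1882 and 2999 against 8021 and 7897, where fibroblasts had 169 and 113 and macrophages 68.3 and 58.0. A Pcp4 UMI was found in 17 of 53 core cells with Rgs5 and in 93 of 107 without. Among those 17, the cell highest in Pcp4 in each library, at 127 and 158 UMIs, had only 1 Rgs5 UMI. Cell by cell, among the 160 core cells 30 had at least 5 UMIs of Rgs5 alone, 101 had at least 5 of Pcp4 alone, 2 had both and 27 neither. For Actg2 the core cells divided into 65 cells at 5 or more UMIs of Actg2 alone, 30 of Rgs5 alone and 2 of both. Rgs2, a regulator of G-protein signalling that nitric oxide signals act through, stood at 110 and 98.0 CPM with Rgs5 and at 209 and 239 without (-1.11 ± 0.19, adjusted p = 0.00959), so that it was lower where Rgs5, Rgs4 and Rgs16 were higher. Pcp4 lies on chr16:96467606-96525793, Actg2 on chr6:83512905-83536265 and Notch3 on chr17:32120820-32166852 of mm10. The plot of Rgs5 against Pcp4 shows the core cells one by one.

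**Figure D3:**
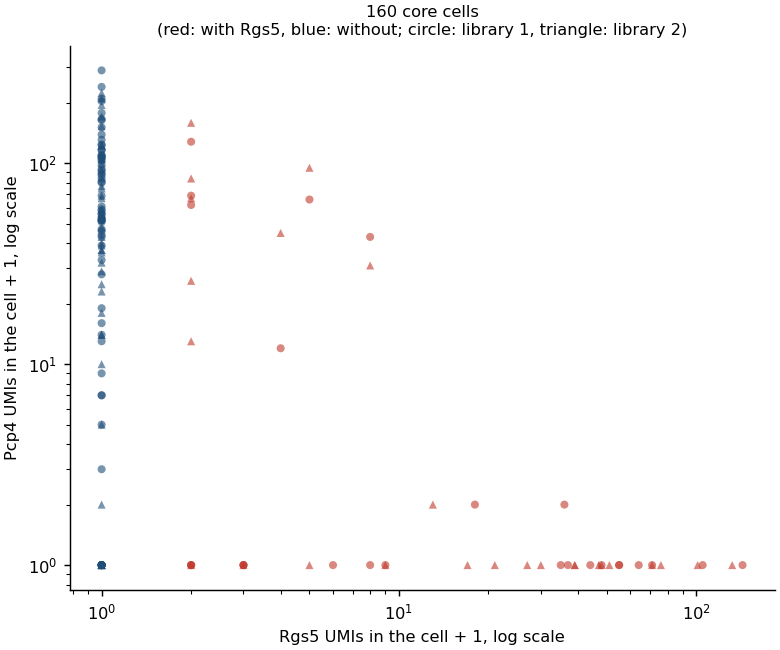
UMIs of Rgs5 (x axis) and of Pcp4 (y axis) in each of the 160 core cells, each plus 1 on a log axis; red marks cells with Rgs5, blue those without, circles are library 1 and triangles library 2. Cells rich in one gene lay along one axis or the other in both libraries, with 2 cells at 5 or more UMIs of both.

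Signalling genes also divided along Rgs5. Of 34 channel genes 11 were higher with Rgs5 and 0 lower, among them P2rx1 by 2.13 ± 0.22 and Kcnk3 by 1.54 ± 0.20. Of 31 vasoactive receptors, 5 were higher and 1, Ramp2, lower, a call not kept with DESeq2 (adjusted p = 0.0865), under the stricter gate (0.429) or in core cells (0.445). Ednrb, the endothelin B receptor, stood at 139 and 163 CPM against 14.4 and 25.9 (2.94 ± 0.29), and in core cells had 61 UMIs with Rgs5 against 1 without. Npy1r, the receptor of the sympathetic transmitter neuropeptide Y, had 17 and 10 UMIs against 0 and 4 (4.95 ± 0.80). The median over the 31 receptors was -0.08, or 0.17 where the 3 genes at 0 in 1 group were put at their bound, so its sign is not fixed. Of 34 genes of nitric oxide and cyclic nucleotide signalling, 13 were higher and 1, Rgs2, lower. Pde3a, a phosphodiesterase of cyclic AMP in vessels and the heart, stood at 418 and 439 CPM against 28.8 and 41.1 (3.62 ± 0.20), and in core cells at 456 and 503 against 47.9 and 65.1. With Rgs5 the phosphodiesterase Pde3a was thus higher, and Pde5a stood lower in core cells. Of 37 transcription factors 14 were higher and 0 lower, with Mef2c, a partner of muscle gene programs, higher by 2.54 ± 0.20 and Tbx2, a T-box repressor, by 1.48 ± 0.30. Myocd differed by 1.28 ± 0.34 (adjusted p = 0.0734 by edgeR, or 0.0317 with the library as a block). Without cells of another class, 2 of 22 channel genes were higher and 0 lower, P2rx1 and Kcnk3 not among them. Of receptors 2 of 10 were higher and 1 lower. Of nitric oxide and cyclic nucleotide genes 5 of 24 were higher and 2 lower. Of transcription factors 5 of 25 were higher and 1 lower, against 133 and 95 of 4656 over all genes.

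By size of change, Higd1b led the genes higher with Rgs5, followed by Dmp1 (dentin matrix protein 1, best known from bone), with 42 and 37 UMIs against 1 and 1, a ratio of 207 (interval 55.5 to 1739), in 27 gated cells. Crip1, a small LIM protein, was the most abundant of this set, at 5416 and 4605 CPM against 208 and 222 (4.53 ± 0.16), and in core cells at 5872 and 5642 against 139 and 266. The largest falls were of genes with no UMI in the 73 cells, such as Col8a2, a collagen, with 269 UMIs without Rgs5 and at least 17.1-fold lower with it.

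Matrix genes moved together with the fibroblast list. Of 58 genes of the vessel wall and basement membrane, 26 were lower with Rgs5 and 10 higher, with a median of -1.13 (-0.88 with genes at 0 at their bound). Col1a1 stood at 80.9 and 214 CPM against 1320 and 1335 (-3.22 ± 0.29), Mfap4, a microfibril protein, was lower by 3.27, Fbln5, an elastic fibre protein, by 2.77, and Eln (elastin) by 2.34. In core cells Col1a1 stood at 120 and 81.9 against 759 and 379. The fibroblast genes of the cells without Rgs5 are given above, and with every cell that carried a gene of another class left out, which keeps 30 cells with and 28 without Rgs5, 6 of 37 matrix genes were higher and 1 lower. In that fit 133 of 4656 genes were higher and 95 lower in all. With DESeq2 Mfap4 (adjusted p = 0.915) and Eln (0.282) did not pass, nor did they under the stricter gate (0.0615 and 0.141 by edgeR). Genes of the list called higher included 4 described here: Lamb2, a laminin chain of vessels, stood at 408 and 294 CPM against 90.5 and 120 (1.74 ± 0.22), Timp3, an inhibitor of matrix enzymes bound to matrix, was higher by 1.43, Sparcl1 by 1.78, and Itga7, a laminin receptor of muscle, by 2.86. Basement membrane collagens were not among them: Col15a1 was lower by 1.16 and Col18a1 by 1.28, and Col4a1 (0.30) and Col4a2 (-0.23) were not called. These values depended on the cells taken. Without cells of another class Col18a1 (2.13), Col4a2 (2.81) and Col4a1 (1.09) stood higher with Rgs5 and Col15a1 (-2.59) lower, none of them called. Of 45 growth factor genes 8 were lower and 6 higher, with Pdgfra, the PDGF receptor of fibroblasts, at 0 and 2 UMIs against 192 and 111. Dissociation stress genes were spread, with 3 of 23 higher and 1 lower.

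**Figure D4:**
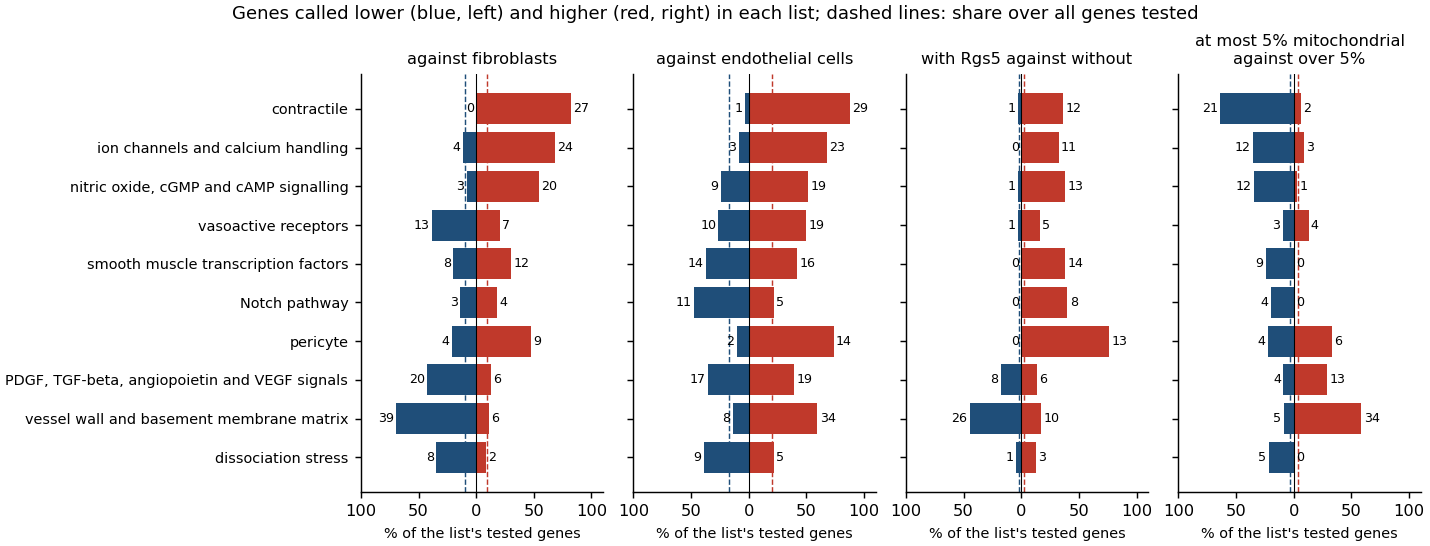
Share of the tested genes of 10 lists called higher (red, to the right) and lower (blue, to the left) in 4 comparisons, with the number of genes at each bar and dashed lines at the share over all genes tested. The contractile list went from 27 higher and 0 lower against fibroblasts to 12 higher and 1 lower with Rgs5 and 2 higher and 21 lower at or under 5% mitochondrial UMIs. With cells of another class left out, which is not drawn, 5 of 31 were higher with Rgs5 and 4 lower.

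Against fibroblasts the matrix list was largely lower in the gated cells (39 of 56, with 6 higher): Col1a1 stood at 1150 and 1114 CPM against 3523 and 3936 (-1.76 ± 0.11) and Mgp (matrix Gla protein) at 2023 and 1134 against 10483 and 10571 (-2.77 ± 0.24). Among the 6 higher were Sparcl1 by 1.81 and Itga7 by 3.45. Against endothelial cells 34 of 57 were higher and 8 lower, with Itga8, an integrin of smooth muscle and fibroblasts, at 762 UMIs against 2. Fibroblasts were chosen for UMIs of Dcn and Col1a2 and endothelial cells for none of Dcn. Both matrix counts thus share the contrast of those gates and are a description. Of 47 growth factor genes, 20 were lower than in fibroblasts and 6 higher. Pdgfra and Pdgfrb were lower by 1.87 and 0.71, and Vegfa, the growth factor of endothelium, was higher by 1.43. At the 5% mitochondrial limit Pdgfra (-0.75), Pdgfrb (-0.069), Vegfa (0.33), Col1a1 (-0.65), Itga7 (0.72), Notch3 (1.41), Nrarp (1.43) and Atp2a2 (0.82) were no longer called against fibroblasts. Among the genes lowest in the gated cells against endothelial cells was Ccl21a, a chemokine of lymphatic endothelium, with 1 UMI against 7545.

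The mitochondrial share of the gated cells was high. Its median was 7.44%, and 91 of 376 (24.2%; interval 19.96 to 28.86) lay at or under 5%, the limit the study used, against 62.5% of fibroblasts, 80.1% of endothelial cells, 80.8% of macrophages and 56.6% of all kept cells. In core cells it was 15 of 160 (9.38%), 13 in library 1 and 2 in library 2. With no mitochondrial limit, 64.2% of the 257 core cells of library 1 and 70.8% of the 233 of library 2 lay over 10%, so that the limit of 10% itself left out most of them; 65 members lay between 9% and 10%, and 74 further cells between 10% and 11%.

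**Figure D5:**
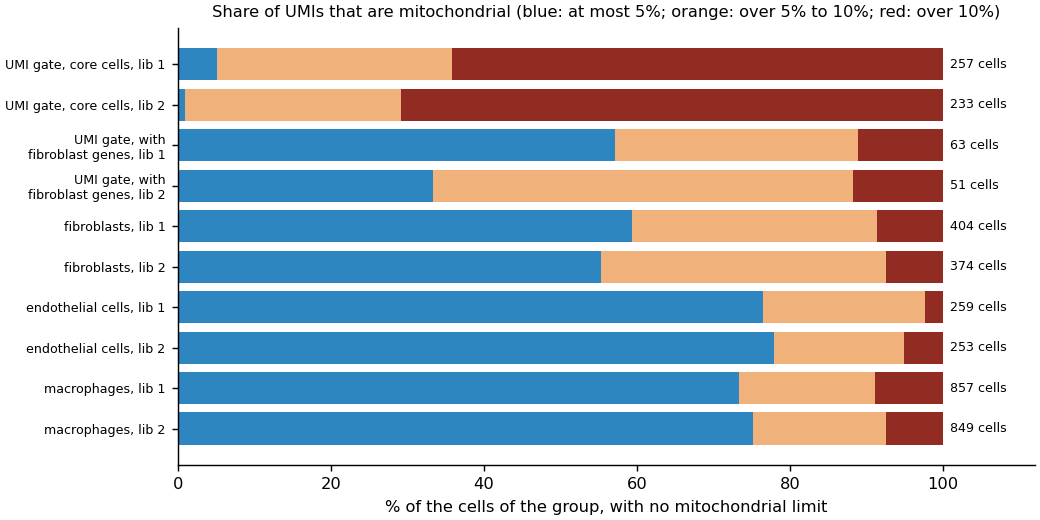
Share of cells (x axis) with at most 5% (blue), over 5% to 10% (orange) and over 10% (red) of their UMIs from the mitochondrial genome, for core cells, gated cells with fibroblast genes and 3 other classes, per library, with no mitochondrial limit. Core cells were the class with the fewest cells in blue, 5.06% and 0.858% by library.

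The 91 cells at or under 5% were compared with the 285 above it, leaving out mitochondrial genes. Of 12382 genes 3.75% were called higher and 3.21% lower in the cells at or under 5%. Of 33 contractile genes 21 were lower and 2 higher (median -1.11, all genes 0.00): Actg2 stood at 67.6 and 92.0 CPM against 598 and 582 (-2.86 ± 0.22), Mylk was lower by 2.03, Pln by 2.37, and Myocd had 1 and 2 UMIs against 47 and 39. Of 58 matrix genes 34 were higher and 5 lower, with Col1a1 higher by 1.76, Mgp by 2.69 and Dcn by 2.85, and of 12 fibroblast genes 10 were higher and 0 lower. Makeup moved with the split: 53 of the 91 (58.2%) met the fibroblast gate against 48 of 285 (16.8%), and the fibroblast list summed to 11193 and 9350 CPM against 1965 and 3128. Its part in the calls was not tested. Notch3 was lower by 1.62 and Iyd, an iodotyrosine deiodinase, by 4.09. Under the stricter gate, Actg2, Mylk, Pln, Myocd, Col1a1, Mgp, Dcn, Notch3, Iyd and Wfdc18 were no longer called (adjusted p from 0.0749 to 0.301 by edgeR). Notch3 was also not called with DESeq2 (adjusted p = 0.0629), after thinning (0.0716) or in core cells (-0.61, adjusted p = 0.714 by edgeR). Nor was Myocd (0.0514, 0.0791 and 0.383) or, in core cells, Dcn (0.351). The core fit held 13 and 2 cells at or under 5% by library, so a call lost there says little.

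Genes of glandular secretion had the largest values among those higher at or under 5%. Lcn3 (lipocalin 3), a secreted carrier protein of the vomeronasal glands, stood at 18981 and 21016 CPM against 778 and 219 (5.36 ± 0.53, adjusted p = 0.000503). Wfdc18, a secreted WAP-domain protein, was higher by 4.16, Ltf (lactoferrin) by 4.87 and Dmbt1, a mucosal defence protein, by 5.25. The libraries differed widely in size: on the log2 scale Wfdc18 was higher by 2.87 in library 1 and 6.44 in library 2, Ltf by 3.04 and 6.34, Dmbt1 by 4.15 and 6.82 and Lcn3 by 4.65 and 6.50. Wfdc18 was not called after thinning (2.30, adjusted p = 0.102). These transcripts were present in every class: Lcn3 had a UMI in 71.5% of gated cells and in 65.7% of macrophages, which stood at 642 and 1224 CPM. Among the gated cells the high levels lay in those with genes of another class, at 12253 and 11292 CPM, while core cells stood at 140 and 286 with Rgs5 and at 157 and 240 without. In core cells alone the difference of Lcn3 between the sides of 5% was -0.20. Lcn3, picked here for those values, was also lower with Rgs5 over all gated cells by 4.83, and at near-equal levels in the core cells just given.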

How the data were processed

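Single cells of the whole vomeronasal organ were captured with 10x Genomics 3′ v3.1 chemistry. The authors aligned reads to mm10 and aggregated the 2 libraries with Cell Ranger 4; its depth normalisation setting was not given in the sources used here. The deposited values are UMI counts per gene and cell, in whole numbers and not normalised by this work, with 108005626 and 95442231 UMIs over 12814 and 11270 barcodes (medians 5036 and 5261). Members and gene lists were chosen with earlier results of these data known. Sums of counts for each cell group in each library were compared with edgeR 4.0.16 (R 4.3.3; TMM, quasi-likelihood, genes with at least 10 UMIs, Benjamini-Hochberg, threshold 0.05); DESeq2 1.42.0 was an alternative. The fit was first tested on simulated counts. Genes named by rule were the 8 largest changes each way among called genes with at least 50 UMIs, with the listed genes. Shares carry exact (Clopper-Pearson) binomial intervals, which cover counting error only, and were repeated after thinning to 4089 UMIs. A fold against a group at 0 uses a floor of 3 counts over the group. Doublets were called with Scrublet in scanpy 1.11.5 at an expected rate of 8% and kept.

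Both groups of each comparison came from the same captures, so the library pairs them; correlations of same-library deviations were 0.126 (fibroblasts), 0.0801 (endothelial cells), 0.0639 (Rgs5) and 0.00336 (mitochondrial share).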

Additional observations from a re-analysis of the deposited data

Results flagged for a closer look

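Some cells outside the comparisons met part of the gate or had Rgs5. With no mitochondrial limit, 415 further cells met the UMI gate with over 10% mitochondrial UMIs, 211 in library 1 and 204 in library 2, at a median of 13.3%. Rgs5 had a UMI in 12.5% of them, against 0.719% of 139 macrophages over the same limit. Below the limit, 21 cells outside the gate had at least 3 Rgs5 UMIs, 7 and 14 by library, with a median of 7 and a highest value of 35. Of these 21, 5 had an Acta2 UMI, 5 Tagln, 1 Myh11, 3 Pdgfrb and 1 Kcnj8, and the median of Acta2 was 0.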

How the results depend on the processing

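Counts of called genes depended on the choices made. Against fibroblasts they were 1615 with DESeq2, 375 at a mitochondrial limit of 5% and 4331 in core cells only; against endothelial cells 3179 with DESeq2, 2941 without cells of another class and 3184 at 5%. By Rgs5 they were 1230 with no filter on low counts, 920 with the replicate block, 237 under the stricter gate, 228 without cells of another class, 372 after thinning, 337 at 5% and 238 in thinned core cells. By mitochondrial share they were 534 with DESeq2, 1371 with no filter, 7 under the stricter gate, 418 after thinning and 257 in core cells. The core-only settings were chosen after seeing the data. The number of gated cells was 246 under the stricter gate, 58 without cells of another class, 91 at 5%, 160 in core cells and 147 to 229 with 1 library left out. The share with Rgs5 was 25.6%, 51.7%, 6.59% and 33.1% under the first 4 of these. The share with Kcnj8 was 0 without cells of another class and 4.40% at 5%, and that with Pdgfrb 37.9% after thinning. Directions reversed against fibroblasts for Ednra, which is not called (0.43 without cells of another class, 0.27 thinned, 0.41 in core cells). At 5% they reversed against fibroblasts for P2ry14 (-0.60), Mef2c (-0.10) and Sparcl1 (-0.079). By Rgs5 without cells of another class they reversed for Eln (0.24), Lcn3 (0.22) and Sparc (3.12). Sparc was called both ways, at -1.62 in the main fit and at 3.12 without those cells (adjusted p = 0.000447 by edgeR). Lcn3 also reversed by Rgs5 in core cells (0.076) and thinned core cells (0.56). By mitochondrial share in core cells directions reversed for Lcn3 (-0.20), Wfdc18 (-0.32), Ltf (-1.83), Dmbt1 (-0.97) and Rgs5 (0.68). The cause of these reversals was not tested. Over all genes, some calls were opposite to the main fit. Without cells of another class these were 44 against fibroblasts, 66 against endothelial cells and 5 by Rgs5. In core cells they were 72, 103 and 0, and at 5% there were 4 against endothelial cells. Of 1179 values over 114 gene comparisons, 1075 kept direction and side of the threshold, 64 lost the call, 24 gained it and 16 reversed. The 114 do not hold every gene named: Col18a1 and Col4a2 also reversed by Rgs5 without cells of another class, as given above. Among the 114, the block changed no other call than those of Cnn1 and Myocd by Rgs5. Leaving out 1 library leaves 1 sample a side, so those are values with no test.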

Other observations

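Vomeronasal receptor genes of sensory neurons were among the largest differences of the gated cells from fibroblasts, each in 1 library. Vmn1r45 had 110 UMIs in library 1 and 1 in library 2, and Vmn1r70 had 1 and 282, of which 281 lay in cells with Rgs5.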
